A study of Mus musculus with 39 samples.

Results

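The 10 genes described here, members of the glucose uptake and glycolysis pathway, were followed in Stat3 null and wild-type (WT) mouse epiblasts and epiblast stem cells (EpiSCs): the glucose transporters Slc2a1 and Slc2a3, and the enzymes Hk2, Pfkp, Aldoa, Gapdh, Pgk1, Eno1, Pkm and Ldha. The rule that picks them uses gene symbols and no measured value, but the list was drawn up with earlier results of these data known. All 10 were found among the 47643 genes listed. RNA-seq read 1 whole epiblast per library, in 35 libraries, and 4 EpiSC lines. Each value below is in CPM, a gene's counts scaled to a common library total, unless another scale is named.

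The epiblasts came from intercrosses of mice heterozygous for Stat3 on a CD1 background, so that all embryos had heterozygous mothers, and the null allele carries a neomycin resistance cassette in place of part of the gene. The nulls gave 4, 8 and 3 libraries at embryonic days (E) 5.5, 6.5 and 7.5, and the WT embryos 2, 9 and 9. Extraembryonic ectoderm and visceral endoderm were taken off by hand, and the former was used for genotyping. EpiSCs, the cell-culture counterpart of the primed epiblast, were 2 null lines (2 and 6) and 2 WT lines (8 and 13). They were kept on fibronectin in reduced oxygen, in N2B27 medium with FGF2, Activin A and the tankyrase inhibitor XAV-939. Epiblast libraries were separate embryos, whereas a line is 1 derivation grown in bulk, so p-values between lines cover only the spread between these lines.

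Glucose enters cells through facilitative transporters, of which SLC2A1 (GLUT1) is the widespread form and SLC2A3 (GLUT3) a high-affinity form. Hexokinase traps it as glucose 6-phosphate, phosphofructokinase commits it to glycolysis, aldolase splits the sugar, and GAPDH, phosphoglycerate kinase, enolase and pyruvate kinase carry the 3-carbon products to pyruvate, which lactate dehydrogenase A reduces to lactate. Primed pluripotent cells are known for high glycolysis, STAT3 for promoting mitochondrial respiration in naive cells, and gastrulating embryos for patterned glucose uptake.

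Slc2a1 lies at chr4:119108711-119137983 (GRCm38, plus strand) and Slc2a3 at chr6:122727809-122801640 (minus strand). The other members lie at chr6:82725025-82774454 (Hk2, minus), chr13:6579768-6648777 (Pfkp, minus), chr7:126795234-126800751 (Aldoa, minus), chr6:125161715-125166467 (Gapdh, minus), chrX:106187100-106203699 (Pgk1, plus), chr4:150236721-150248879 (Eno1, plus), chr9:59656368-59679375 (Pkm, plus) and chr7:46841475-46855627 (Ldha, plus). All 10 are protein-coding genes, and the counts cover their exons as whole genes.

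Start-site windows of 300 bases (250 before to 50 after a start, RefSeq, GRCm38.p6) were found for 9 of the 10 members, 15 windows in all, and none for Slc2a3. ACGTG, the core of the hypoxia response element that HIF factors bind, was searched on both strands (CACGT on the other). It was present in 8 of the 15 windows and in 7 of 9 members, against 19.6% of 32851 windows and 21.8% of 27025 genes overall. A second form of that core, GCGTG, was in 8 of 15 windows, from 5 of 9 members, and in 32.4% of all windows, with both strands searched and CACGC as its opposite strand. A match is a string of letters, not a shown binding site. Windows are printed 5′ to 3′ on the gene's strand with each ACGTG or CACGT in capitals. One is of Slc2a1, the only transporter with a window. Hk2 and Pgk1 are enzymes lower in E7.5 than in E6.5 WT, although the fall of Pgk1 depended on the libraries kept. The Ldha window has the most matches. There CACGTG reads the same on both strands and so counts as 2 overlapping matches. The windows of Eno1 and Pfkp held no match and are not printed. Those printed span chr4:119108495-119108794 (Slc2a1), chr6:82774405-82774704 (Hk2), chrX:106186850-106187149 (Pgk1) and chr7:46845554-46845853 (Ldha), and hold 1, 2, 2 and 5 matches.
Slc2a1: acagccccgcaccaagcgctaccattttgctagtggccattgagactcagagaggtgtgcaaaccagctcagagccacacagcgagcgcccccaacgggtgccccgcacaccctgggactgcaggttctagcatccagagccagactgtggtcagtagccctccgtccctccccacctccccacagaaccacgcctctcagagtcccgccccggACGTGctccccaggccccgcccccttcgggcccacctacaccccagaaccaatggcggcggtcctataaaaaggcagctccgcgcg
Hk2: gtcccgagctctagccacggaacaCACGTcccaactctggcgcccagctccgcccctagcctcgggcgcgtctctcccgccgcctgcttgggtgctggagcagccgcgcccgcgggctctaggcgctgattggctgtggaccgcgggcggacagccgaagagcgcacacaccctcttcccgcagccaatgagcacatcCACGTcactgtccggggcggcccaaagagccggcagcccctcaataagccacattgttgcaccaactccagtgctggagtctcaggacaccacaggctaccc
Pgk1: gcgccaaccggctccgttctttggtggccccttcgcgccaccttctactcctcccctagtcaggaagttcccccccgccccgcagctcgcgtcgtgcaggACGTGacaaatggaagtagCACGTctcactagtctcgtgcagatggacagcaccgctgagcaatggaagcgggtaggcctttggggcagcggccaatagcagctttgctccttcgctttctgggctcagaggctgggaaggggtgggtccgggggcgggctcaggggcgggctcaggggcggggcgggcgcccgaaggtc
Ldha: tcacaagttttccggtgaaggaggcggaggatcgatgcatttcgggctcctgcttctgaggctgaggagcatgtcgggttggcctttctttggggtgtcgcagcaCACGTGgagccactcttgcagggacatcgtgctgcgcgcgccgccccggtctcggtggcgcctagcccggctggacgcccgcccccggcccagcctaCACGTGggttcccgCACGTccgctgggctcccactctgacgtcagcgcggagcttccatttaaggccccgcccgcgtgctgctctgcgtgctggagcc

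Depth ran from 22941210 to 79013960 counts in epiblasts and from 63445877 to 127583699 in EpiSCs. At E6.5, 3 null and 3 WT libraries, called deep here, exceeded 40000000. E7.5 nulls 1 and 3 also exceeded it, at 40496930 and 41655234, and null 2 was at 37143484. E7.5 WT ran from 25793920 to 36002498 without WT 3, which was at 39477197. The E7.5 genotypes thus differed in depth as well, and the part of depth in their differences was not tested. As a check of the labels, Stat3 was at 1.22 to 1.496 CPM in E7.5 nulls against 4.63 to 24.3 in WT, a log2 difference of -3.31 (SE 0.44, adjusted p = 0.00808) in edgeR's quasi-likelihood test. It differed between null and WT in the other groups by -1.41 (E5.5), -1.60 (E6.5) and -2.62 (EpiSCs, adjusted p = 0.00706), of which E5.5 (adjusted p = 0.999) and E6.5 (adjusted p = 0.334) did not pass. Markers of visceral endoderm, a tissue taken off by hand, were detected. The summed level of 12 visceral endoderm markers, led by Cubn and Apob, was 43.7 to 255 CPM in E7.5 nulls and 406 to 4222 in E7.5 WT, with no overlap. It ran from 121 to 6565 in E6.5 nulls, from 50.3 to 5708 in E6.5 WT and from 5418 to 11304 at E5.5 apart from null 1, and stayed under 8 CPM in EpiSCs. Over 10 extraembryonic ectoderm markers the sum was 10.4 to 21.0 in E7.5 nulls and 18.3 to 169.6 in WT, with Elf5, the marker that defines that tissue, at a median of 0 in both. In E7.5 WT that sum was led by Cdx2 (median 62.8 CPM), also a gene of the posterior gastrula, and Rhox5 (22.2). There were 4 libraries that stood apart, E5.5 null 1 (Pou5f1, the pluripotency factor Oct4, at 0.662 CPM and Nanog at 0), E6.5 null 1 (extraembryonic ectoderm sum 943.7), E6.5 WT 3 (visceral endoderm sum 5708) and E7.5 WT 3 (the primitive streak gene T at 5.53 CPM, against 76.1 to 228 in the other E7.5 WT).

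Levels per kilobase of exon compare genes only roughly. The length joins the exons of all annotated transcripts, such as 13401 bases for Pfkp and 4133 for Gapdh. It can exceed that of the RNA present, by an amount that differs between genes. On this scale Pkm, encoding pyruvate kinase M, was the highest member in E6.5 WT by its own counts, at 527 ± 55.7 CPM per kb (SD, n = 9). Ldha followed at 431 ± 60.6, then Aldoa at 365 ± 94.0, Eno1 at 332 ± 45.4 and Pgk1 at 313 ± 101. Neighbours from Aldoa to Pgk1 did not differ beyond their spread, nor did those from Hk2 to Gapdh. These levels leave out reads on near-identical copies, which held a median of 1916 CPM for Gapdh and 976 for Eno1 in epiblasts, so the place of both in the order is uncertain. Slc2a1 stood at 128 ± 36.0, Hk2 at 61.5 ± 13.5, Slc2a3 at 44.5 ± 32.4, Gapdh at 43.3 ± 7.80 and Pfkp at 3.37 ± 3.27. In E7.5 WT the transporters were higher per kilobase, Slc2a1 at 262 ± 54.6 and Slc2a3 at 171 ± 62.2. In EpiSCs Aldoa was at 641 ± 120.5 in WT and 679 ± 40.5 in null lines and Pkm, within its spread, at 608 ± 96.0 and 650.1 ± 37.2. Ldha was below both, at 185 ± 34.5 and 212 ± 24.9. EpiSCs and epiblasts were counted in separate tables made with different library kits, so no test was run between them.

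The stage comparisons asked how the pathway changes as the epiblast passes from before to after the onset of gastrulation. Between E6.5 and E7.5 the WT epiblast gained transcripts of both transporters, while several enzymes fell by less than 2-fold. Slc2a1 ran in E6.5 WT from 311 to 754 CPM with a median of 422 (n = 9) and in E7.5 WT from 664 to 1198 CPM with a median of 910.1 (n = 9). The E7.5 WT libraries lay above most of those of E6.5, and the groups overlapped. On the log2 scale Slc2a1 rose by 1.04 (SE 0.15, adjusted p = 6.37e-05), 2.06-fold. Slc2a3 ran in E6.5 WT from 162 to 840.2 CPM with a median of 199.9 and in E7.5 WT from 433 to 1760.3 CPM with a median of 1285, and rose by 1.96 (SE 0.37, adjusted p = 0.000899), 3.88-fold. The lowest E7.5 WT value of Slc2a3, 433 CPM, was in E7.5 WT 3, the library with little T. These 2 of the 10 members passed both an adjusted p under 0.05 and a 2-fold change, and both were higher, while 8.83% of all genes tested did so. With the deep E6.5 libraries left out, Slc2a1 rose by 1.14 and Slc2a3 by 2.65. Slc2a1 lies close to the 2-fold limit and was 0.97 without E6.5 WT 8 and 0.99 without E7.5 WT 5.

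At the same step 4 enzymes went the other way, by less than 2-fold. Hk2, encoding hexokinase 2, fell by 0.51 (SE 0.13, adjusted p = 0.00478) on the log2 scale, from 367 ± 80.6 to 256 ± 56.7 CPM (SD, n = 9 each). Gapdh fell by 0.47 (SE 0.093, adjusted p = 0.000899), Pgk1 by 0.39 (SE 0.14, adjusted p = 0.0455), and Aldoa, the fructose-bisphosphate aldolase, by 0.36 (SE 0.11, adjusted p = 0.0213). Pfkp, the platelet-type phosphofructokinase, differed by -0.75 (SE 0.38, adjusted p = 0.165), Eno1 (enolase 1) by -0.095 (SE 0.063, adjusted p = 0.299), Pkm by -0.016 (SE 0.052, adjusted p = 0.866) and Ldha by -0.14 (SE 0.072, adjusted p = 0.182), and none of these passed. The fall of Gapdh was lost when its counts were summed with those of near-identical copies, described further on, at -0.046 (adjusted p = 0.523). The adjusted p of Pgk1 reached 0.0852 with 1 library left out. Counted without a minimum fold, 6 of 10 members, Gapdh among them, had an adjusted p under 0.05, against 24.9% of all genes. Some of these values moved with depth. With the 3 deep E6.5 WT libraries left out, Hk2 differed by -0.36 (adjusted p = 0.0281) and Gapdh by -0.42 (adjusted p = 0.00104), but Aldoa by -0.15 (adjusted p = 0.136) and Pgk1 by -0.11 (adjusted p = 0.321), and Pfkp turned to 0.26 (adjusted p = 0.214).

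**Figure D1:**
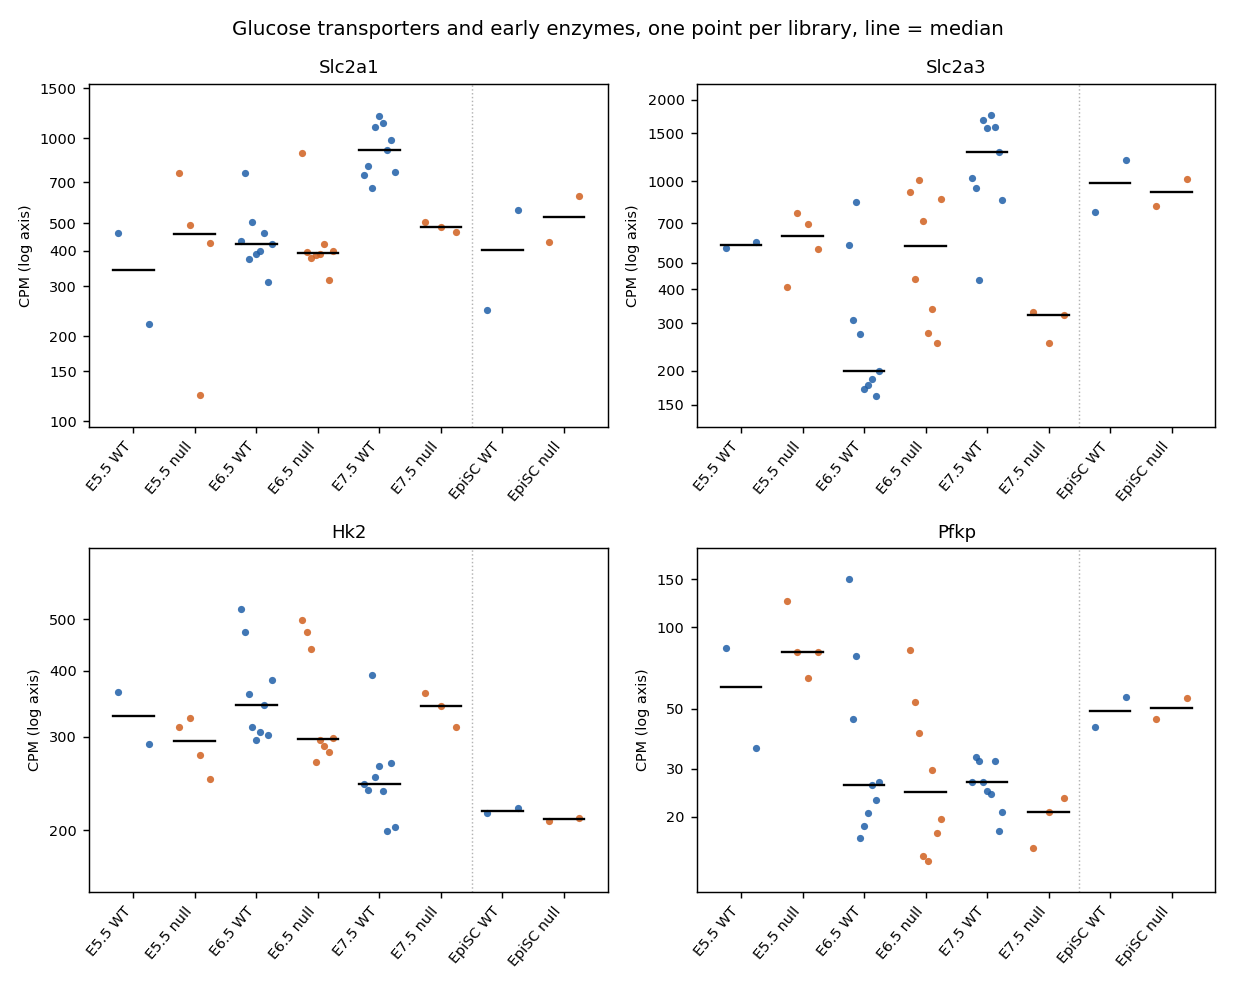
Level of Slc2a1, Slc2a3, Hk2 and Pfkp in every library (CPM, log axis) by stage and genotype, with WT in blue, Stat3 null in orange and a line at the group median. The 3 E7.5 null libraries sit below every E7.5 WT library for both transporters.

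The genotype comparison at E7.5 asked how the null epiblast differs once WT embryos gastrulate. Both transporters were lower in nulls, and no enzyme passed the test. Slc2a3 was at 329, 253 and 322 CPM in the 3 nulls and from 433 to 1760.3 CPM with a median of 1285 in WT. Slc2a1 was at 507, 485 and 465 CPM in nulls and from 664 to 1198 CPM with a median of 910.1 in WT. For both transporters the highest null lay below the lowest WT. Epiblast markers differed along with the transporters. The sum of 7 epiblast markers was 1034 to 1519 CPM in nulls, 301 to 649 in WT without WT 3 and 1488 in WT 3, and WT 4 to 7, the lowest in it, were the highest in Slc2a3. That of 8 nascent mesoderm markers was 106 to 378 CPM in nulls, 217 to 451 in WT without WT 3 and 21.4 in WT 3, so that the genotypes overlapped. The part of these markers in the result was not tested. On the log2 scale Slc2a3 differed by -2.02 (SE 0.40, adjusted p = 0.0368), 4.05-fold lower in nulls. Slc2a1 differed by -0.90 (SE 0.17, adjusted p = 0.0285), 1.87-fold lower. Slc2a3 alone of the 10 members passed both limits, against 1.17% of all genes, and 2 of 10 had an adjusted p under 0.05, against 2.11%. The 8 enzymes had no adjusted p under 0.05. Hk2 was at 362, 343 and 313 CPM in nulls and 256 ± 56.7 in WT, a difference of 0.43 (SE 0.15, adjusted p = 0.132) with an unadjusted p of 0.0136. Ldha differed by 0.20 (SE 0.075, adjusted p = 0.141), Gapdh by 0.21 (SE 0.12, adjusted p = 0.342), Pfkp by -0.40 (SE 0.20, adjusted p = 0.280), Pkm by 0.093, Pgk1 by -0.080, Eno1 by 0.055 and Aldoa by 0.042, the last 4 with adjusted p-values from 0.411 to 0.829.

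The Slc2a3 call at E7.5 was lost in 10 of the 12 fits that left out 1 library. Leaving out 1 library in turn kept the difference between -2.13 and -1.90. The adjusted p was 0.153 without null 1, 0.179 without null 2 and 0.121 without null 3. Without a single WT library it was 0.0565, 0.0501, 0.000645, 0.0631, 0.0656, 0.0612, 0.0623, 0.0641 and 0.0460 for WT 1 to 9, so that the call held without WT 3 and without WT 9. Slc2a1 likewise had an adjusted p above 0.05 without null 1 (0.121), null 2 (0.154), null 3 (0.0993) or WT 8 (0.0522), and its value stayed between -0.95 and -0.85. With the 4 libraries that stand apart left out, of which this comparison holds only E7.5 WT 3, Slc2a3 was -2.13 (adjusted p = 0.000645) and Slc2a1 -0.95 (adjusted p = 0.00119). In that fit Hk2 was also higher in nulls, by 0.53 (adjusted p = 0.000672), as were Gapdh, by 0.28 (adjusted p = 0.0254), and Ldha, by 0.23 (adjusted p = 0.0162), all under 2-fold. Without the filter on low counts edgeR gave Slc2a3 -2.01 (adjusted p = 0.0513) and in a fit of all 35 epiblast libraries -2.05 (adjusted p = 0.131), so that neither passed. DESeq2 on all libraries gave Slc2a3 -2.03 (adjusted p = 5.55e-09).

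The stage rise was tested for a difference between genotypes. Slc2a3 rose from E6.5 to E7.5 in WT by 1.96 and differed by -0.99 (SE 0.44, adjusted p = 0.600) in nulls, and the genotype effect at E7.5 minus that at E6.5 was -2.95 (SE 0.67, adjusted p = 0.0448). It was the only one of 10 members past both limits, against 0.443% of all genes, and the only one with an adjusted p under 0.05, against 0.556%. For Slc2a1 the same term was -0.93 (SE 0.30, adjusted p = 0.132), and for Hk2 0.44 (SE 0.24, adjusted p = 0.420). The Slc2a3 term kept its call in 8 of the 29 fits that left out 1 library, with adjusted p-values from 0.106 to 0.204 when an E7.5 null was left out, and over all libraries left out in turn its value ran from -3.27 to -2.81 with adjusted p from 0.00704 to 0.204.

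**Figure D2:**
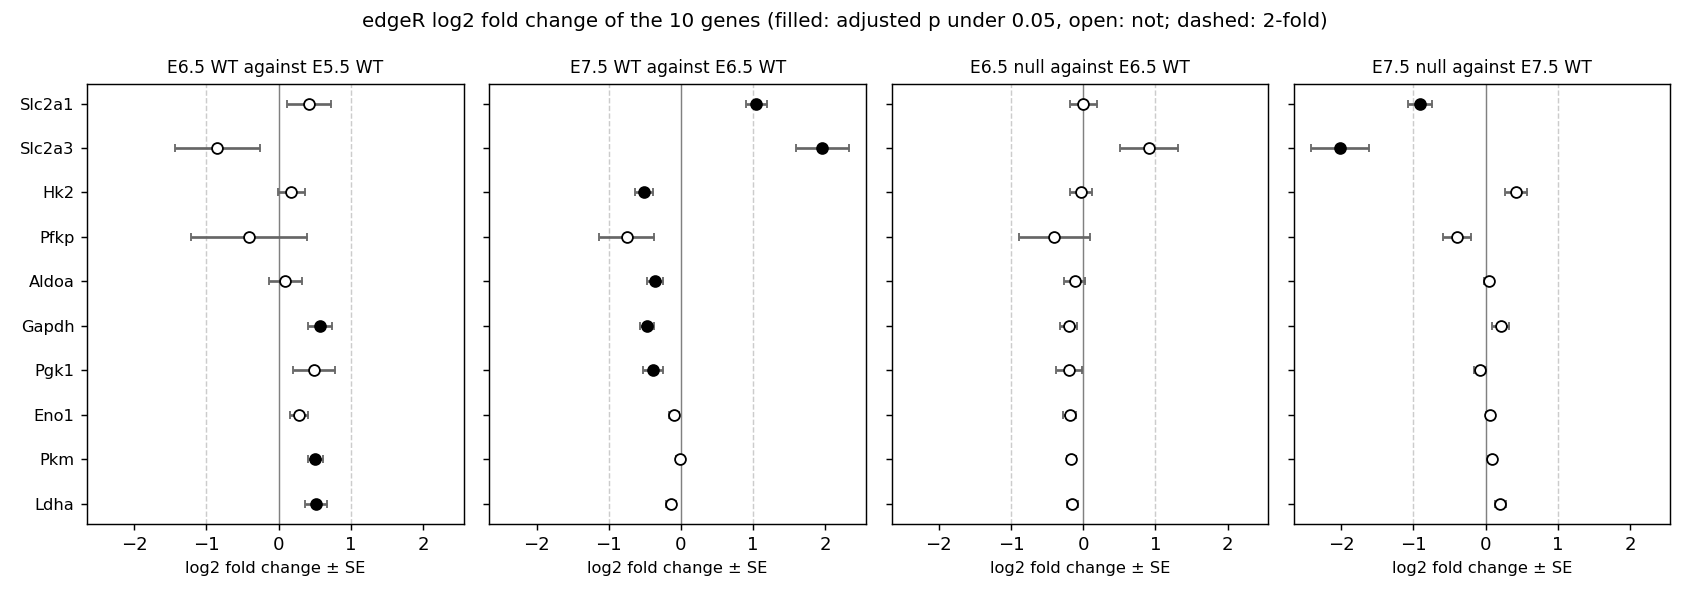
Log2 fold change of each member with its standard error in 4 comparisons (dashed lines at 2-fold; filled points have an adjusted p under 0.05). Slc2a1 and Slc2a3 rise from E6.5 to E7.5 in WT and are lower in E7.5 nulls, while the enzymes stay within 2-fold.

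Slc2a3 moved with the summed visceral endoderm and extraembryonic ectoderm markers. Across the 9 E7.5 WT libraries, Pearson's r between its log2 level and the log2 visceral endoderm sum was 0.93 (exact permutation p = 0.000102, adjusted p = 0.000612). Spearman's rho was 0.93 (exact permutation p = 0.000750, adjusted p = 0.00450), and r without the 2 libraries farthest in the sum was 0.93. With the extraembryonic ectoderm sum, r was 0.98 (exact permutation p = 3.03e-05, adjusted p = 0.000364). By rank, rho was 0.97 (exact permutation p = 0.000165, adjusted p = 0.00198), and r without the 2 libraries farthest in the sum was 0.93. The library lowest in both sums, E7.5 WT 3, was the lowest in Slc2a3. In E7.5 WT the extraembryonic ectoderm sum was led by Cdx2, also a gene of the posterior gastrula, with Elf5 at a median of 0. For either transporter, relations with that sum at E7.5 thus need not be with extraembryonic ectoderm. Across the 9 E6.5 WT libraries the visceral endoderm relation was r = 0.93 (exact permutation p = 0.000686, adjusted p = 0.00274). Its Spearman's rho was 0.73 (exact permutation p = 0.0311, adjusted p = 0.0632), and r without the 2 libraries farthest in the sum was 0.74. That with extraembryonic ectoderm was r = 0.87 (exact permutation p = 0.00474, adjusted p = 0.0114). Spearman's rho was 0.82 (exact permutation p = 0.0108, adjusted p = 0.0431), and r without the 2 libraries farthest in the sum was 0.86. Within the 6 E6.5 WT libraries that were not deep the visceral endoderm relation was r = 0.74 (exact permutation p = 0.150) with rho = 0.14 (exact permutation p = 0.803). The extraembryonic ectoderm relation was r = 0.91 (exact permutation p = 0.0611) with rho = 0.60 (exact permutation p = 0.242). Neither passed within these 6, and the 3 deep libraries were too few.

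In the 8 E6.5 nulls, r of Slc2a3 was 0.44 (exact permutation p = 0.257, adjusted p = 0.308) with visceral endoderm. By rank, rho was 0.40 (exact permutation p = 0.327, adjusted p = 0.490), and r without the 2 libraries farthest in the sum was 0.90. With extraembryonic ectoderm it was 0.72 (exact permutation p = 0.0174, adjusted p = 0.0328). Its Spearman's rho was 0.81 (exact permutation p = 0.0218, adjusted p = 0.0632), and r without the 2 libraries farthest in the sum was 0.78. Neither depth held enough null libraries for a separate value, and no E7.5 WT library was deep. Slc2a1 was tied to the visceral endoderm sum in E7.5 WT by r = 0.77 (exact permutation p = 0.0192, adjusted p = 0.0328). Spearman's rho was 0.72 (exact permutation p = 0.0369, adjusted p = 0.0632), and r without the 2 libraries farthest in the sum was 0.79. In E6.5 WT its r was 0.042 (exact permutation p = 0.914, adjusted p = 0.914), and in E6.5 nulls -0.51 (exact permutation p = 0.187, adjusted p = 0.249). Both moved without the 2 libraries farthest in the sum, to 0.45 in E6.5 WT and 0.47 in E6.5 nulls. With the extraembryonic ectoderm sum, r of Slc2a1 was 0.78 (exact permutation p = 0.00351, adjusted p = 0.0105) in E7.5 WT, 0.19 (exact permutation p = 0.601, adjusted p = 0.655) in E6.5 WT and 0.84 (exact permutation p = 0.0335, adjusted p = 0.0502) in E6.5 nulls, where it was 0.45 without the 2 farthest libraries and so rested on them. Left without their 2 farthest libraries, E7.5 WT gave 0.66 and E6.5 WT 0.64. P-values were adjusted by Benjamini-Hochberg over these 12 relations.

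With the log2 visceral endoderm sum as a covariate, a fit added after the data were seen, the E7.5 genotype difference of Slc2a3 was -0.35 (SE 0.35, adjusted p = 1) and that of Slc2a1 -0.32 (SE 0.23, adjusted p = 1). The WT stage rise was then 1.20 (SE 0.18, adjusted p = 0.000190) for Slc2a3 and 0.92 (SE 0.20, adjusted p = 0.00301) for Slc2a1, and the interaction of Slc2a3 was -1.69 (SE 0.52, adjusted p = 0.243). In that stage fit Pfkp was lower by 1.16 (adjusted p = 0.0174). Since all E7.5 nulls lie below all E7.5 WT in this sum, genotype and endoderm content cannot be told apart at E7.5. In bulk epiblasts, fewer cells of a type and less RNA per cell cannot be told apart either. In EpiSC lines, where the endoderm sum was under 8 CPM, Slc2a3 was at 809 and 1019 CPM in null and 769.9 and 1199 in WT lines. These lines came from another library kit and were not tested against epiblasts.

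**Figure D3:**
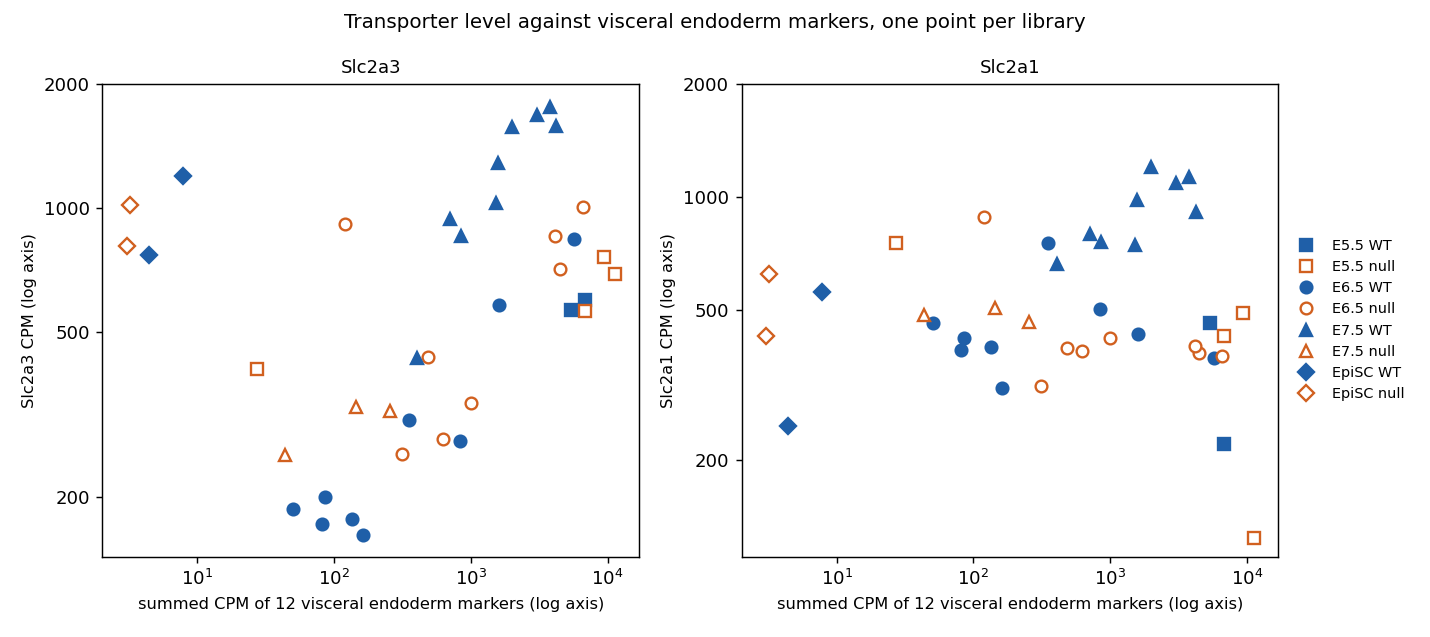
Level of Slc2a3 and Slc2a1 (CPM) against the summed level of 12 visceral endoderm markers (CPM, log axes), 1 point per library, with the EpiSC lines included. Slc2a3 is higher where the endoderm sum is higher within E7.5 WT, and the 3 E7.5 nulls lie below all E7.5 WT libraries on both axes.

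At E6.5 the genotypes were compared in the most libraries, 8 null and 9 WT. No member passed in edgeR's quasi-likelihood test, and neither did any of the other genes tested (0% of 17095). At an unadjusted p under 0.05 stood 3 members, against 8.27% of all genes, and DESeq2 called 0 members and 37 genes overall. Slc2a3 ran from 254 to 1008 CPM with a median of 575 in nulls and from 162 to 840.2 CPM with a median of 199.9 in WT, a difference of 0.91 (SE 0.40, adjusted p = 0.571) with overlapping groups and an unadjusted p of 0.0385. The other 2 were Eno1 at -0.19 (unadjusted p = 0.0446, adjusted p = 0.588) and Pkm at -0.17 (unadjusted p = 0.0201, adjusted p = 0.490). Slc2a1 ran from 316 to 886 CPM with a median of 394 in nulls, around the same middle as WT, with a difference of 0.0021. Over the 10 members the median difference was -0.16, with 2 higher, against -0.0086 over all genes.

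At E6.5 several enzymes moved with depth in both genotypes. Pfkp was at 46.0 to 149.9 CPM in the 3 deep WT libraries and 16.7 to 26.9 in the 6 others, and at 40.6 to 82.2 and 13.8 to 29.8 in nulls, without overlap in either genotype. Hk2 in nulls was at 439.7 to 499 and 269 to 298, and in WT at 361 to 523 and 296 to 385. In WT the deep libraries also lay apart for Aldoa (1236 to 1511 against 710.4 to 1058), Pgk1 (819.9 to 1161 against 472 to 654) and Eno1 (2015 to 2151 against 1492 to 1733). The deep libraries were replicates 1 to 3 of each genotype and had fewer genes with a count above 0. In nulls these were 15171 to 19178 genes against 20338 to 21616, and in WT 17961 to 19380 against 21117 to 22310. CPM removes library size but not a difference in how libraries were made, and the labels name no batch. Why the levels differ with depth was not tested.

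At E5.5 the genotypes were compared in 4 null and 2 WT libraries. Slc2a1 was at 755, 492.8, 124 and 426 CPM in nulls 1 to 4 and 463 and 221 in WT, a wide and overlapping spread. Slc2a3 was at 409, 761, 694 and 562 in nulls and 567 and 598 in WT. No member was called by edgeR or DESeq2, 0 had an unadjusted p under 0.05, and 0% of 18690 genes were called by edgeR (467 at an unadjusted p under 0.05, 31 called by DESeq2). From E5.5 to E6.5, 3 enzymes rose in WT and 1 of them, Pkm, in nulls, all by less than 2-fold. Tissue content differed between these stages too. The visceral endoderm sum had a median of 6138 CPM in E5.5 WT and 163 in E6.5 WT, and of 8133 and 814 in nulls. Its part in these rises was not tested. In WT, Pkm rose by 0.51 (SE 0.11, adjusted p = 0.0104), from 1878 ± 116 (n = 2) to 2637 ± 279 CPM (n = 9), Ldha by 0.52 (SE 0.15, adjusted p = 0.0430) and Gapdh by 0.57 (SE 0.17, adjusted p = 0.0456). Leaving out 1 of the 11 libraries in turn kept these values positive, with adjusted p-values of up to 0.245 for Pkm, 0.562 for Ldha and 0.416 for Gapdh. These 3 of 10 had an adjusted p under 0.05, against 9.24% of all genes, and 0 passed the 2-fold limit too, against 5.15%. In edgeR 4 members were at an unadjusted p under 0.05, against 23% of all genes. DESeq2 called 0 members and 2059 of 47643 genes. The other 7 members differed by -0.85 (Slc2a3) to 0.49 (Pgk1), with adjusted p-values of at least 0.184. In nulls, Pkm rose by 0.43 (SE 0.080, adjusted p = 0.0104), 1 of 10 against 3.77%, and Ldha differed by 0.30 (SE 0.082, adjusted p = 0.0553). No member was called by edgeR in nulls, against 1.98%, and 3 were at an unadjusted p under 0.05, against 18.3% of all genes. DESeq2 called 1 member among 1176 of 47643 genes. That was Pfkp, at -1.40 (adjusted p = 0.0386), where edgeR gave -1.39 (SE 0.44, adjusted p = 0.0979). Without E5.5 null 1 and E6.5 null 1, edgeR too called Pfkp, at -1.48 (adjusted p = 0.0299).

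From E6.5 to E7.5 in nulls, no member was called by edgeR (0.103% of all genes) or DESeq2. At an unadjusted p under 0.05 stood 3, against 8.13% of all genes. They were Slc2a3 at -0.99, Pkm at 0.23 (SE 0.084, adjusted p = 0.450) and Ldha at 0.21 (SE 0.083, adjusted p = 0.522). Slc2a1 differed by 0.12 (SE 0.24, adjusted p = 0.999). The E7.5 null was also set against E6.5 WT, the earlier WT stage. There 0 members were called by edgeR (0.162% of all genes) or DESeq2 and 0 had an unadjusted p under 0.05 (8.87% of all genes). Slc2a1 differed by 0.12 (SE 0.19, adjusted p = 0.956), Slc2a3 by -0.081 (SE 0.52, adjusted p = 0.995) and Hk2 by -0.10 (SE 0.15, adjusted p = 0.949) (the groups overlapped for all 3). With the deep E6.5 libraries left out, Slc2a3 turned to 0.63 (adjusted p = 0.0662). A miss of the threshold does not show that these groups are alike.

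In EpiSCs the 2 null lines were at 428 and 626 CPM of Slc2a1 and the WT lines 13 and 8 at 246 and 559. Hk2 was at 209 and 211 in null and 216 and 220.1 in WT lines, and Ldha at 645 and 761 and 533 and 695. The WT lines differed from each other more than 2-fold in Slc2a1. No member was called by edgeR (0.106% of all genes) or DESeq2, and 0 had an unadjusted p under 0.05 (9.09% of all genes). The 10 differences ran from -0.11 (Slc2a3) to 0.38 (Slc2a1), 8 of them higher in null lines, with a median of 0.085 against -0.010 over all genes.

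**Figure D4:**
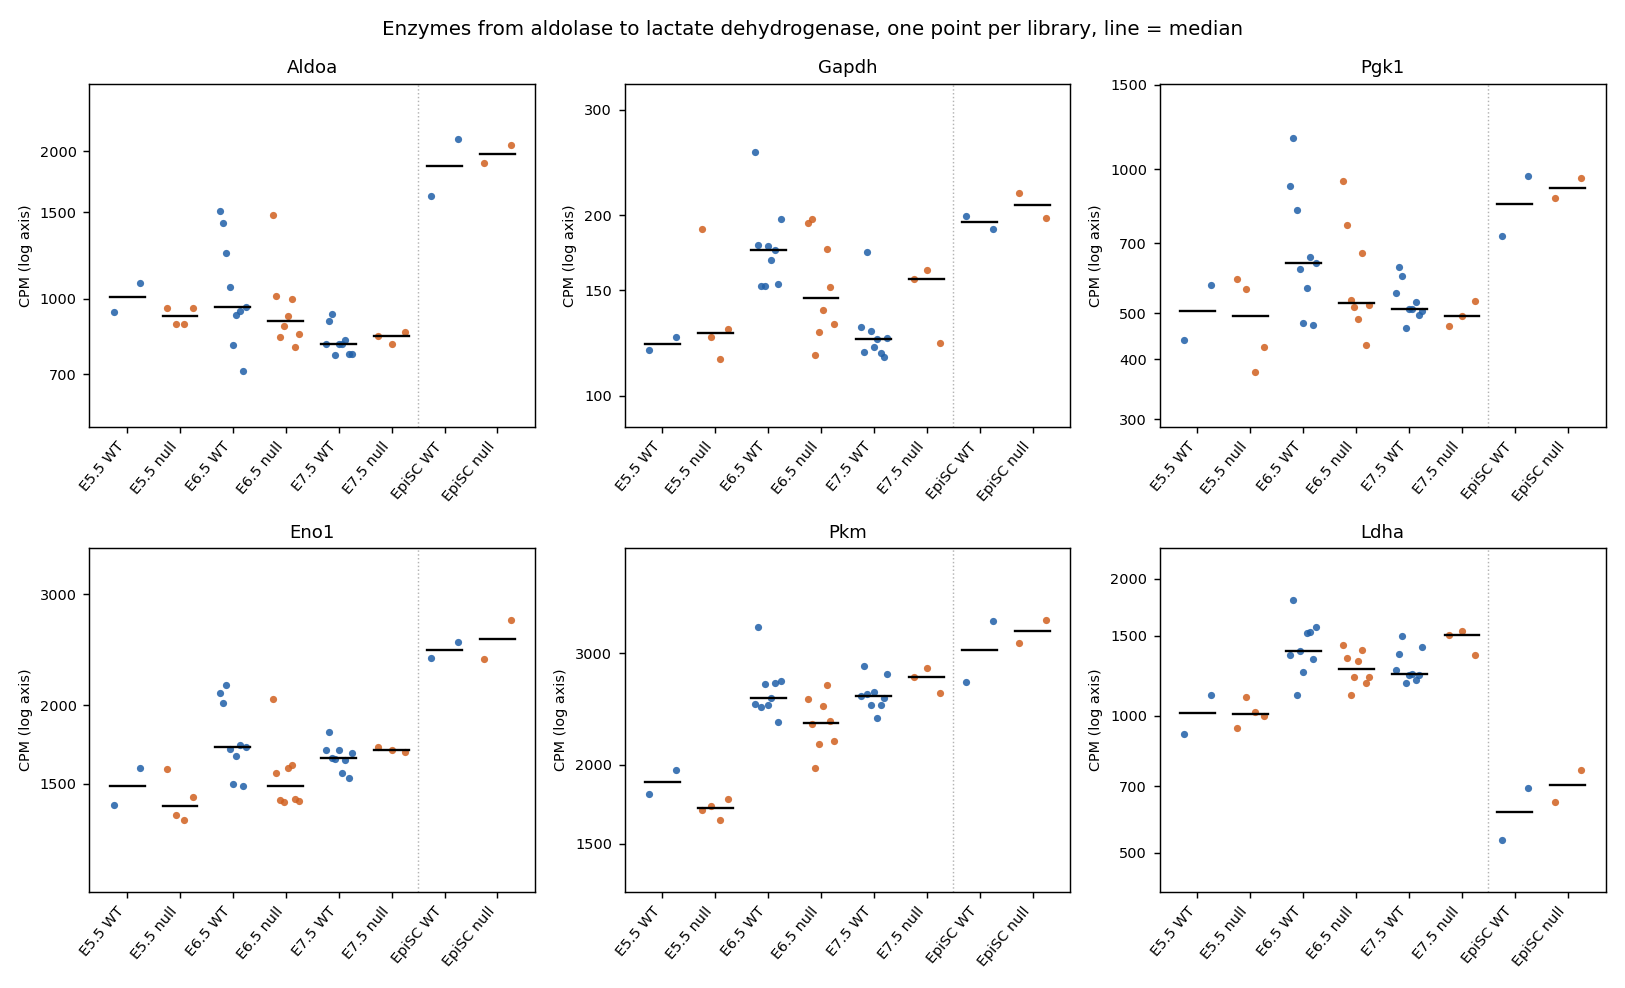
Level of Aldoa, Gapdh, Pgk1, Eno1, Pkm and Ldha in every library (CPM, log axis) by stage and genotype, with WT in blue, Stat3 null in orange and a line at the group median. Pkm is higher in every E6.5 library than in the E5.5 libraries of the same genotype, and the E7.5 genotypes overlap for all 6 enzymes.

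Several of these genes have near-identical copies, so that their reads can be split. A copy here is another annotated gene with at least 95% identity to the member over at least 200 bases. Gapdh had 85 such copies annotated and 81 listed, and 88.2 to 94.4% of the counts of Gapdh and its copies together lay on the copies in epiblasts (94.4 to 95.6% in EpiSCs), led by Gm13394. Summed with its copies, Gapdh differed between E7.5 and E6.5 WT by -0.046 (adjusted p = 0.523) in place of -0.47, so its fall is uncertain. For Eno1 the share on copies was 31.9 to 39.8% (Eno1b first), for Pgk1 4.81 to 10.8% and for Pkm 0.454 to 2.11%. Ldha had 2 copies annotated and 0 listed. Slc2a1, Slc2a3, Hk2, Pfkp and Aldoa had none by this rule.

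The balance of partner genes was followed as the log2 ratio of counts of a member to its partner, which does not depend on library scaling. It can still vary with tissue content, such as the visceral endoderm sum, whose part in these ratios was not tested. Slc2a1 over Slc2a3 was 0.70 ± 0.88 in E6.5 WT (mean ± SD, n = 9), -0.34 ± 0.41 in E7.5 WT (n = 9), -0.31 ± 0.73 in E6.5 nulls (n = 8) and 0.70 ± 0.22 in E7.5 nulls (n = 3). The ratio was below 0 in 8 of 9 E7.5 WT libraries, in 2 of 9 E6.5 WT, in 5 of 8 E6.5 nulls and in 0 of 3 E7.5 nulls. The ratio fell by 1.04 from E6.5 to E7.5 in WT (exact permutation p = 0.00950, adjusted p = 0.0380) and was higher in nulls than WT at E7.5 by 1.04 (exact permutation p = 0.00909, adjusted p = 0.0380). At E6.5 it differed between genotypes by -1.004 (exact permutation p = 0.0257, adjusted p = 0.0770). With 1 library left out in turn, the adjusted p of the stage fall rose above 0.05 in 9 of 18 tests and that of the E7.5 genotype difference in 5 of 12. Ldha over Ldhb, the lactate dehydrogenase subunit favoring pyruvate, was 4.85 ± 0.31 in E6.5 WT and 4.09 ± 0.31 in E7.5 WT, a fall of 0.76 (exact permutation p = 0.000329, adjusted p = 0.00395), beside a rise of Ldhb by 0.64 (SE 0.089, adjusted p = 4.16e-05).

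The other ratios did not pass. Ldha over Ldhb differed between genotypes by 0.076 (exact permutation p = 0.759, adjusted p = 0.759) at E6.5 and by 0.32 (exact permutation p = 0.132, adjusted p = 0.226) at E7.5. Hk2 over Hk1, its housekeeping counterpart, differed by -0.18 (exact permutation p = 0.299, adjusted p = 0.448) between the WT stages, by -0.12 (exact permutation p = 0.727, adjusted p = 0.759) between genotypes at E6.5 and by 0.64 (exact permutation p = 0.0364, adjusted p = 0.0818) at E7.5. Pfkp over Pfkl, the liver-type phosphofructokinase, was below 0 in every group and differed by -0.28 (exact permutation p = 0.363, adjusted p = 0.485), -0.14 (exact permutation p = 0.7003, adjusted p = 0.759) and -0.38 (exact permutation p = 0.0409, adjusted p = 0.0818) in the same 3 comparisons. Each p comes from a two-sided exact permutation test, adjusted over the 12 tests. The smallest p that 3 against 9 libraries allow is 0.00455.

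**Figure D5:**
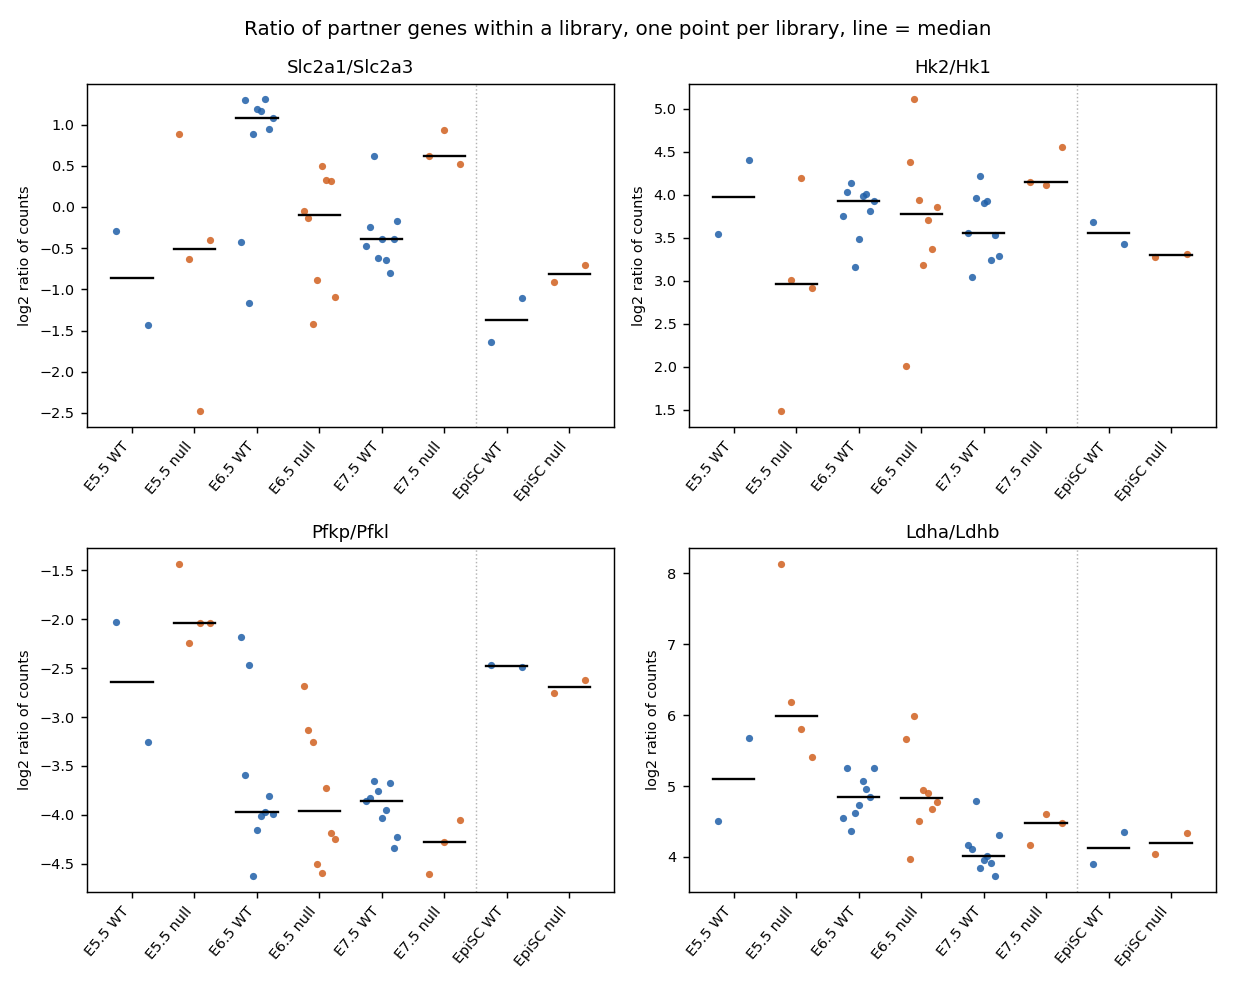
Log2 ratio of counts for 4 pairs of partner genes in every library, by stage and genotype (WT blue, Stat3 null orange, line at the group median). Slc2a1 over Slc2a3 and Ldha over Ldhb are lower in E7.5 WT than in E6.5 WT.

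Beyond the members, 86 genes in 6 lists were followed: other glucose transporters, other glycolytic isozymes, regulators of phosphofructokinase and pyruvate entry, lactate and pyruvate carriers, pentose phosphate and gluconeogenic enzymes, and hypoxia response genes. Few were called. From E5.5 to E6.5, 3 of 81 tested were called in WT: Eno3, the muscle enolase, rose by 2.24 (SE 0.45, adjusted p = 0.00913), Pdk3, a pyruvate dehydrogenase kinase, rose by 1.17 (SE 0.24, adjusted p = 0.00913), and Fbp2, the muscle fructose bisphosphatase, fell from 3.10 to 0.0452 CPM. In nulls, 4 of 77 were called over the same stages: Eno3 rose by 2.59 (SE 0.48, adjusted p = 0.0103), Pdk3 by 1.75 (SE 0.29, adjusted p = 0.00687) and Pfkm, the muscle phosphofructokinase, by 1.11 (SE 0.25, adjusted p = 0.0258), and Pfkfb2, which makes or removes the activator of phosphofructokinase, fell by 1.42 (SE 0.32, adjusted p = 0.0250). From E6.5 to E7.5 in WT, 1 of 76 was called, Slc2a10 (GLUT10), which rose from 0.337 ± 0.347 to 2.12 ± 1.51 CPM (SD, n = 9 each, adjusted p = 0.0239). Between genotypes at E7.5, 1 of 80 was called, Slc16a1 (MCT1), the lactate and pyruvate carrier, which was at 187 ± 49.4 CPM in nulls (n = 3) and 425 ± 89.2 in WT (n = 9), lower by 2.24-fold with no overlap (edgeR adjusted p = 0.0330). In that comparison edgeR called 31 genes without null 1, 0 of 20760 without null 2 and 20 without null 3. With the endoderm covariate it called 0 of 19680. The Slc16a1 call was thus lost without null 2 and with the covariate. In the remaining 6 comparisons edgeR called 0 of 76 to 83 list genes.

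By list, the other glucose transporters had a median log2 change of 1.17 from E6.5 to E7.5 in WT (6 of 7 tested higher). Between genotypes at E7.5 it was -0.96 (0 of 8 higher), against 0.0066 and -0.020 over all genes. At an adjusted p under 0.05 in edgeR stood 1 of the 7 (Slc2a10) and 0 of the 8, against 24.9% and 2.11% of all genes. The part of the endoderm sum in these medians was not tested. The 20 hypoxia response genes had medians of -0.057 (10 of 20 higher) and -0.27 (4 of 20 higher), with 0 and 1 at an adjusted p under 0.05. The other glycolytic isozymes had medians of -0.048 (7 of 17 higher) and -0.013 (9 of 19 higher). Regulators of phosphofructokinase and pyruvate entry had medians of -0.087 and 0.055, lactate and pyruvate carriers 0.085 and -0.15, and pentose phosphate and gluconeogenic enzymes -0.054 and 0.026. The members themselves had medians of -0.25 and 0.049.

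The members did not form 1 pattern across the 35 epiblast libraries. Pkm and Ldha were the most alike pair (Pearson r of log2 CPM = 0.87), followed by Aldoa and Pgk1 (0.84) and Pgk1 and Eno1 (0.77). Slc2a1 and Slc2a3 gave 0.49, and the most opposed pair was Slc2a3 and Gapdh (-0.56). Values of Gapdh here rest on its own counts alone. Of the counts of Gapdh and its copies together, 88.2 to 94.4% lay on the copies in epiblasts. Among 14190 genes with a mean count of at least 50, those most like Slc2a1 were Amotl1 (0.85), Grsf1 (0.83) and Smad3 (0.83), and those most like Slc2a3 were Greb1l (0.92), Actn1 (0.91) and Krt8 (0.90), of which Krt8 encodes a keratin of simple epithelia. For Hk2 they were Zfp106 (0.83), Hnrnpf (0.80) and Slc16a3 (0.79), for Pfkp Brwd1 (0.82), Fhod1 (0.82) and Ero1l (0.82), for Aldoa Shmt2 (0.84), Atp11b (0.82) and Alkbh5 (0.79) and for Gapdh Rpl4 (0.83), Clip1 (0.82) and Pabpc1 (0.79). For Pgk1 they were Pfkl (0.85), Pdk1 (0.83) and Egln1 (0.80), all from the lists of the same pathway or the hypoxia response, for Eno1 Eno1b (0.86), Pgam1 (0.85) and Gm2606 (0.81), for Pkm Tubb5 (0.93), Gm12671 (0.92) and Gm7336 (0.92) and for Ldha Ybx1 (0.87), Gm13394 (0.86) and Carm1 (0.86). Of these genes, Gm2606, Gm12671, Gm7336 and Gm13394 are near-identical copies of Gapdh, and Eno1b is a copy of Eno1. These correlations are descriptions over libraries that share stage, depth and tissue content, with no test.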

How the data were processed

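RNA of single epiblasts (PicoPure isolation, SMARTer Stranded Total RNA-Seq v2 pico kit) and of EpiSC lines (RNeasy, NEBNext Ultra II) was sequenced. Per the labels, the authors trimmed reads with Trim Galore, aligned them to GRCm38/mm10 with HISAT2 and used StringTie. They deposited whole-number counts per gene in 1 table of epiblasts and 1 of EpiSCs, not normalized. The annotation and strand setting of the counting are not given in the sources used here. Positions and exon lengths were taken from GENCODE vM21, which held 47224 of the 47643 gene IDs, and 0 columns of values were left unused.

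Members were found by symbol. The members, lists and tests were chosen with earlier results of these data known. Counts were tested with the quasi-likelihood method of edgeR 4.0.16 (limma 3.58.1, R 4.3.3) after TMM scaling and filterByExpr (minimum count 10, minimum total 15), on the libraries of the groups compared, with Benjamini-Hochberg adjustment over all genes tested. A gene was called at an adjusted p under 0.05 and an absolute log2 fold change over 1. Ratios used counts plus 0.5 and exact permutation tests in Python 3.11.15 with SciPy 1.17.1. Copies were found with blastn 2.17.0, figures drawn with matplotlib 3.10.9, and DESeq2 1.42.0 was an alternative. Alternatives were other scaling, no filter, abundant genes left out, summed copies, a joint fit, replicate number as a block and leaving out each library. Named were the 10 members, Stat3, each list gene called (at most the 3 of smallest p per list and comparison), the partners Hk1, Pfkl and Ldhb, and the 3 genes most like each member (Pearson r of log2 CPM, prior count 2, mean count of at least 50). Replicate numbers were not used as pairs in the main tests. The highest correlation between 2 libraries was 0.977 in epiblasts and 0.988 in EpiSCs, so that none was counted as a duplicate.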

Additional observations from a re-analysis of the deposited data

Results flagged for a closer look

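Each member was looked at in the 4 epiblast groups of 4 to 10 libraries for a single library far from the rest, by Dixon's gap test at the 95% level on the log2 scale, which chance passes in about 1 in 20 groups. Of 40 groups, 7 held such a library, always the highest, and 5 of the 7 were E6.5 null 1 or E7.5 WT 3, both among the 4 libraries that stand apart. In E6.5 null 1, Slc2a1 was at 886 CPM against 316 to 423 in the other 7 E6.5 nulls. Aldoa in the same embryo was at 1485 against 797 to 1009.9 CPM. Eno1 there was at 2046 against 1402 to 1609 CPM. In E7.5 WT 3, Hk2 was at 393 CPM against 199 to 268 in the other 8 E7.5 WT, and Gapdh at 174 against 116 to 131. The remaining 2 were in E6.5 WT, with Gapdh at 255 CPM in WT 1 against 152 to 197 and Pkm at 3301 in WT 2 against 2338 to 2715. In E6.5 null 1 the extraembryonic ectoderm sum was 943.7 CPM, and in E7.5 WT 3 the level of T was 5.53 CPM. Their part in these values was not tested.

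The genotype effect on Slc2a3 differed between stages, by -2.95 on the log2 scale at E7.5 relative to E6.5 (edgeR adjusted p = 0.0448). The null against WT difference of Slc2a3 was 0.91 at E6.5, which did not pass, and -2.02 at E7.5, which did.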

How the results depend on the processing

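Of 980 member values under alternatives other than leaving out 1 library, 917 kept their direction and their side of the call and 43 changed sign. With 1 library left out, 1212 of 1320 kept both and 74 changed sign. Over 100 member results, 46 changed sign somewhere, the largest of them 0.76 in size as reported. The cause was not tested. In each comparison with E5.5 WT or EpiSCs, leaving out 1 library can leave an arm with 1 sample, which is then assumed to vary like the others. Leaving out the 4 libraries that stand apart or the deep E6.5 libraries and adding the endoderm sum as a covariate were chosen after the data were seen. Groups of 2 libraries (E5.5 WT and each EpiSC genotype) and of 3 (E7.5 nulls) limit these tests, while the lowest count of any member in any library, that of Pfkp, was 432.

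EdgeR called 1070 genes from E5.5 to E6.5 in WT, 1518 from E6.5 to E7.5 in WT, 363 from E5.5 to E6.5 in nulls, 20 from E6.5 to E7.5 in nulls, 0 between genotypes at E5.5, 0 between genotypes at E6.5, 231 between genotypes at E7.5, 32 for E7.5 null against E6.5 WT, 98 for the interaction and 22 between EpiSC genotypes. DESeq2 called 2059, 2329, 1176, 326, 31, 37, 1038, 274, 633 and 214 in the same order. Without the filter on low counts edgeR called 2805 from E6.5 to E7.5 in WT, 35 for the interaction and 75 between EpiSC genotypes, and with no minimum fold 1919 from E5.5 to E6.5 in WT, 4286 from E6.5 to E7.5 in WT, 692 from E5.5 to E6.5 in nulls and 416 between genotypes at E7.5. All 35 epiblast libraries in 1 fit gave 1478 from E5.5 to E6.5 in nulls, 104 from E6.5 to E7.5 in nulls, 5 between genotypes at E5.5, 11 between genotypes at E7.5 and 59 for the interaction. Without the 4 libraries that stand apart edgeR called 2029 from E5.5 to E6.5 in WT, 820 from E5.5 to E6.5 in nulls, 32 from E6.5 to E7.5 in nulls, 4 between genotypes at E6.5, 1105 between genotypes at E7.5, 88 for E7.5 null against E6.5 WT and 868 for the interaction. The endoderm covariate left 0 between genotypes at E7.5 and 5 for the interaction. Leaving out the deep libraries gave 181 from E6.5 to E7.5 in nulls, 184 for E7.5 null against E6.5 WT and 822 for the interaction, and 16 genes were called between the E6.5 genotypes within the libraries that were not deep.

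The number of members called between genotypes at E7.5 was 1, and became 0 without the filter, in the fit of all 35 libraries and with the endoderm covariate, and 2 with no minimum fold. The interaction's 1 member became 0 without the filter and with the covariate. With no minimum fold 3 members passed from E5.5 to E6.5 in WT, 6 from E6.5 to E7.5 in WT and 1 (Pkm) from E5.5 to E6.5 in nulls, where DESeq2 and the fit without the 4 libraries that stand apart each called 1 (Pfkp). Without these 4 libraries the E6.5 genotype difference of the Slc2a1 over Slc2a3 ratio became -1.27 (adjusted p = 0.0174) and the E7.5 difference of Ldha over Ldhb 0.41 (adjusted p = 0.0291), both then past 0.05 by the exact permutation test, and at E6.5 Hk2 over Hk1 turned to 0.16 and Ldha over Ldhb to -0.089.

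Log2 differences that changed sign are given with their value under the alternative. Without the 4 libraries that stand apart they were Slc2a1 0.15 and Aldoa -0.014 from E5.5 to E6.5 in nulls, Hk2 0.025 from E6.5 to E7.5 in nulls, Slc2a1 -0.24 between genotypes at E6.5, Slc2a3 0.24 for E7.5 null against E6.5 WT and Pfkp 0.21 for the interaction. With the endoderm covariate they were Pkm 0.027 and Ldha 0.00087 from E6.5 to E7.5 in WT, Hk2 -0.038, Aldoa -0.090, Gapdh -0.20, Eno1 -0.036, Pkm -0.11 and Ldha -0.13 between genotypes at E7.5 and Pfkp 0.30 for the interaction. Without the deep E6.5 libraries they were Pfkp 0.26 and Eno1 0.0083 from E6.5 to E7.5 in WT, Hk2 0.24, Pfkp 0.068 and Gapdh 0.019 from E6.5 to E7.5 in nulls and Slc2a3 0.63, Hk2 0.059 and Eno1 0.054 for E7.5 null against E6.5 WT. With counts summed over near-identical copies they were Gapdh 0.20 from E6.5 to E7.5 in nulls, Gapdh -0.028 between genotypes at E5.5 and Gapdh 0.082 for E7.5 null against E6.5 WT. In the fit of all 35 libraries they were Pkm 0.00092 from E6.5 to E7.5 in WT and Slc2a1 -0.012 between genotypes at E6.5. At E6.5 the genotype difference of Slc2a1 was also -0.033 with depth as a term and -0.11 within libraries that were not deep, and that of Hk2 was 0.064 within deep ones.

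Replicate numbers were not used as pairs in the main tests, since in no comparison with 3 or more pairs were all correlations of same-numbered libraries over 0.1 (lowest -0.088 from E6.5 to E7.5 in WT, -0.054 from E5.5 to E6.5 in nulls, -0.011 from E6.5 to E7.5 in nulls, -0.024 between genotypes at E6.5, -0.29 between genotypes at E7.5 and -0.030 for E7.5 null against E6.5 WT). Nor did every library correlate best with its own number in any of them (3 of 18, 2 of 8, 2 of 6, 5 of 16, 1 of 6 and 4 of 6 did). Between genotypes at E6.5, 4 of 8 same-numbered correlations were over 0.1, with a median of 0.128 against -0.012 over all null and WT pairs. There the deep libraries carry the same numbers in both genotypes. Between genotypes at E5.5, with 2 pairs, 3 of 4 libraries correlated best with their own number. Whether the numbers mark a shared litter or batch was not tested. With the replicate number as a block, edgeR called 101 from E5.5 to E6.5 in WT, 2 from E5.5 to E6.5 in nulls, 0 from E6.5 to E7.5 in nulls, 0 between genotypes at E7.5, 81 for E7.5 null against E6.5 WT and 22 for the interaction. It called 0 members at E7.5 between genotypes (Slc2a3 -1.32, adjusted p = 0.899) and 0 for the interaction (Slc2a3 -3.42, adjusted p = 0.0564). The values that changed sign under this replicate block were Pfkp 0.59 from E5.5 to E6.5 in WT, Slc2a1 0.31 and Slc2a3 0.30 from E5.5 to E6.5 in nulls, Slc2a1 -0.067 from E6.5 to E7.5 in nulls, Slc2a3 -0.043 and Pgk1 0.22 between genotypes at E5.5, Slc2a1 -0.038 between genotypes at E6.5, Aldoa -0.060 and Eno1 -0.0015 between genotypes at E7.5, Slc2a1 -0.00054 for E7.5 null against E6.5 WT and Aldoa -0.10 and Pgk1 -0.23 for the interaction. By number, the Slc2a1 over Slc2a3 ratio differed by -1.04 from E6.5 to E7.5 in WT (exact permutation p = 0.0508) and by 0.73 between genotypes at E7.5, and Ldha over Ldhb by -0.76 from E6.5 to E7.5 in WT (adjusted p = 0.141), none past 0.05 after adjustment. For the EpiSC comparison alone, no paired analysis was possible because the lines share no numbers.

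With 1 library left out in turn, the sign of these members changed in at least 1 fit. From E5.5 to E6.5 in WT, ranges were Slc2a1 -0.061 to 1.003, Hk2 -0.014 to 0.31, Pfkp -0.93 to 0.29 and Aldoa -0.043 to 0.16. From E6.5 to E7.5 in WT, the range was Pkm -0.052 to 0.025. From E5.5 to E6.5 in nulls, ranges were Slc2a1 -0.34 to 0.36, Slc2a3 -0.19 to 0.087 and Aldoa -0.067 to 0.095. From E6.5 to E7.5 in nulls, ranges were Hk2 -0.11 to 0.025 and Gapdh -0.14 to 0.050. Between genotypes at E5.5, ranges were Slc2a1 -0.029 to 1.05, Slc2a3 -0.055 to 0.22, Hk2 -0.32 to 0.022, Pgk1 -0.21 to 0.16, Eno1 -0.14 to 0.035 and Ldha -0.11 to 0.16. Between genotypes at E6.5, ranges were Slc2a1 -0.22 to 0.13, Hk2 -0.12 to 0.044 and Pfkp -0.72 to 0.091. For E7.5 null against E6.5 WT, the range was Slc2a3 -0.17 to 0.24. For the interaction, ranges were Pfkp -0.51 to 0.31 and Pgk1 -0.023 to 0.22. Between EpiSC genotypes, ranges were Slc2a1 -0.096 to 1.10, Slc2a3 -0.40 to 0.25, Pfkp -0.15 to 0.23, Aldoa -0.11 to 0.29, Pgk1 -0.091 to 0.34, Eno1 -0.048 to 0.16 and Pkm -0.065 to 0.27. The number of members called ran from 1 to 2 from E6.5 to E7.5 in WT (1 without E6.5 WT 8 or E7.5 WT 5), from 0 to 1 from E5.5 to E6.5 in nulls (1, Pfkp, without E6.5 null 1), from 0 to 1 between genotypes at E7.5 (1 only without WT 3 or WT 9) and from 0 to 1 for the interaction (1 only without E6.5 null 1, 2, 5, 6 or 7, E6.5 WT 1 or 3, or E7.5 WT 3). Ratio differences ran as follows, Slc2a1 over Slc2a3 -1.27 to -0.97 from E6.5 to E7.5 in WT, Slc2a1 over Slc2a3 -1.24 to -0.85, Hk2 over Hk1 -0.32 to 0.12, Pfkp over Pfkl -0.30 to 0.039 and Ldha over Ldhb -0.076 to 0.21 between genotypes at E6.5 and Slc2a1 over Slc2a3 0.92 to 1.16, Hk2 over Hk1 0.50 to 0.72, Pfkp over Pfkl -0.51 to -0.24 and Ldha over Ldhb 0.23 to 0.45 between genotypes at E7.5. The Slc2a1 over Slc2a3 stage fall passed 0.05 only without E6.5 WT 1 or 3 or E7.5 WT 1 to 5, 8 or 9, and its E7.5 genotype difference failed without any 1 null or without WT 6 or 7. The E6.5 difference of that ratio passed without E6.5 WT 1 or 3, and at E7.5 Hk2 over Hk1 passed without WT 4, Pfkp over Pfkl without WT 8 and Ldha over Ldhb without WT 3.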
